A study of Mus musculus with 14 samples.

Results

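The 31 genes described here make cholesterol and fatty acids, and are known targets or regulators of the sterol regulatory element-binding proteins (SREBPs). They were chosen by name as rows of a count table of 55291 gene symbols, by a rule that uses no measured value but was written with earlier results of these data known, and all 31 were found and passed the filter on low counts that left 17933 genes. They fall into 6 genes of the mevalonate steps, 9 that carry squalene on to cholesterol, 4 for regulation and sterol transport, 5 for fatty acid synthesis, and 7 for elongation and desaturation.

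RNA was measured by sequencing in lung tumor nodules of C57BL/6 mice, and every group carried the genotype HER2 Exon20YVMA, an activating insertion in the kinase domain of this receptor. The treatments were long-term vehicle (n = 2), mobocertinib (TAK-788), an inhibitor of the receptor's kinase (n = 3), T-DM1, an antibody to the receptor that carries a microtubule poison (n = 3), and the combination of both (n = 3). The last group held nodules with acquired resistance to mobocertinib given alone (n = 3). The sources used here do not give the animals' age, or what drives the allele and in which cells. The labels do not say that each library came from its own mouse, so p-values measure the spread between these samples, which may be technical.

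SREBPs are made as membrane proteins of the endoplasmic reticulum. When sterols are scarce, SCAP carries them to the Golgi, where 2 proteases free the part that enters the nucleus, and when sterols are plentiful INSIG proteins hold SCAP back. SREBP2 acts mainly on cholesterol genes and SREBP1 mainly on fatty acid genes, usually beside the factor NF-Y. In the lung, alveolar type 2 cells use these pathways to make surfactant lipid.

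The upstream sequences of 5 genes are shown because they carry those binding letters in genes whose levels are described next. They come from RefSeq windows on GRCm38.p6 (250 bases before to 50 bases after a start), which matched 24 of the 31 genes by symbol, and are cut before the earliest annotated start. Capitals mark the NF-Y box CCAAT on either strand and, in Hmgcs1 only, the sterol regulatory element TCACNCCAC, where N is any base. In Fasn 2 boxes of opposite strand overlap. The regions are chr13:119690101-119690350 (+ strand) for Hmgcs1, chr8:122443423-122443672 (- strand) for Mvd, chr5:114444019-114444268 (+ strand) for Mvk, chr15:82147019-82147180 (+ strand) for Srebf2 and chr11:120824548-120824797 (- strand) for Fasn.
Hmgcs1: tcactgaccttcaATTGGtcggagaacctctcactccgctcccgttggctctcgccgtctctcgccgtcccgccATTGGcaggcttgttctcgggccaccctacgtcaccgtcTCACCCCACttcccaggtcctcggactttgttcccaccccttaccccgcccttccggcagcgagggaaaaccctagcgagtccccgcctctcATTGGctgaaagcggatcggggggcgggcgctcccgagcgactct
Mvd: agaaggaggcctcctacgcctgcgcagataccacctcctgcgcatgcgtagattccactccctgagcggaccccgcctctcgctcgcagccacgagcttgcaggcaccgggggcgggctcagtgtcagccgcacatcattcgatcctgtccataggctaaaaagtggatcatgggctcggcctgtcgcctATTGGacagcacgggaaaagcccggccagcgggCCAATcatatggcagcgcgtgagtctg
Mvk: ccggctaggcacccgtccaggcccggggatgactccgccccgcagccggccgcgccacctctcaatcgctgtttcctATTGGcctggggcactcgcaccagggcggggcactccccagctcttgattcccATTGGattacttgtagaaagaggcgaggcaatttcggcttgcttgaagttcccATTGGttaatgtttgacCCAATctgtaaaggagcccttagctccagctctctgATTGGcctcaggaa
Srebf2: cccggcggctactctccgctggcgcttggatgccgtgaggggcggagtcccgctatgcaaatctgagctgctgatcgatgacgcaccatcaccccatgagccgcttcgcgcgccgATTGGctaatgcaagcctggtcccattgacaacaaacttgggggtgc
Fasn: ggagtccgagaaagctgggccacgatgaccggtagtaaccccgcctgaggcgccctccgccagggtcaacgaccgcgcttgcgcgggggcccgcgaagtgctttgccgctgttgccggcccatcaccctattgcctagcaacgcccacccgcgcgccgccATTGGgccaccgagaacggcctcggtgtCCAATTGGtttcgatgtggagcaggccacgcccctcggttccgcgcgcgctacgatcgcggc

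The first window of 20 of the 24 matched genes (83.3%) held an NF-Y box, against 37.9% of 27025 genes with a window and 39.0% of 17492 protein-coding genes. Mvk held 5 boxes, and Hmgcs1 and Nsdhl held 4 each in the full window of 300 bases. The 4 genes with none in that window were Elovl6, Acaca, Fads2 and Dhcr7, although another annotated start of Dhcr7 had 2. The Acaca window, at chr11:84195188-84195487, lies inside the gene, which starts at chr11:84129672. The Acacb window, at chr5:114165268-114165567, also lies inside its gene, which starts at chr5:114146535. These windows therefore do not describe the earliest annotated start of Acaca or Acacb. Acacb, with 1 box, is counted among the 20. The last 20 bases of 22 of the 24 windows lay in an annotated transcript of the gene. The GC box GGGCGG was found in 17 of 24 (70.8%), against 35.9% of all genes and 46.3% of protein-coding genes, and the E-box CACGTG in 4 (16.7%) against 7.24%. The exact sterol regulatory element was found in Hmgcs1 alone (4.17%, against 1.22% of all genes). With 1 base allowed to differ it was found in 10 of 24 (41.7%), against 24%. A match describes letters in a window and is not a measurement of binding.

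Library totals were 19.3 to 31.3 M counts. The 2 vehicle libraries held another mix of RNA than the other 12. Messenger RNAs under 1 kb took 25.7% and 30.9% of their counts, against 6.79% to 11.9% elsewhere, and those over 5 kb took 6.13% and 4.51%, against 12.6% to 20.1%. This difference runs between vehicle and all other groups, so it cannot be told apart from treatment, and a fit with offsets for transcript length and GC content is given for the results against vehicle. All 4 comparisons with vehicle share those 2 libraries.

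The 31 genes together took 0.191% (vehicle 2) to 0.922% (resistant 2) of a library's counts. Per transcript length, the highest median over the 14 libraries was 594 TPM (a value scaled to transcript length and library size), for Scd1, the main stearoyl-CoA desaturase. Elovl1 followed at 172 TPM, Scd2 at 151 TPM, Elovl5 at 123 TPM and Fasn at 114 TPM. The lowest were Elovl6 at 1.17 TPM and Acacb at 1.91 TPM. The highest sterol gene was Pmvk at 73.7 TPM. Within groups, the median SD of log2 CPM (counts scaled to library size, with TMM factors) was 0.488 over the 31 genes, against 0.529 over all genes tested and 0.364 over those at 10 CPM or more. Srebf2 varied least within groups (0.255) and Pmvk and Scd1 most (0.986 and 0.984).

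**Figure D1:**
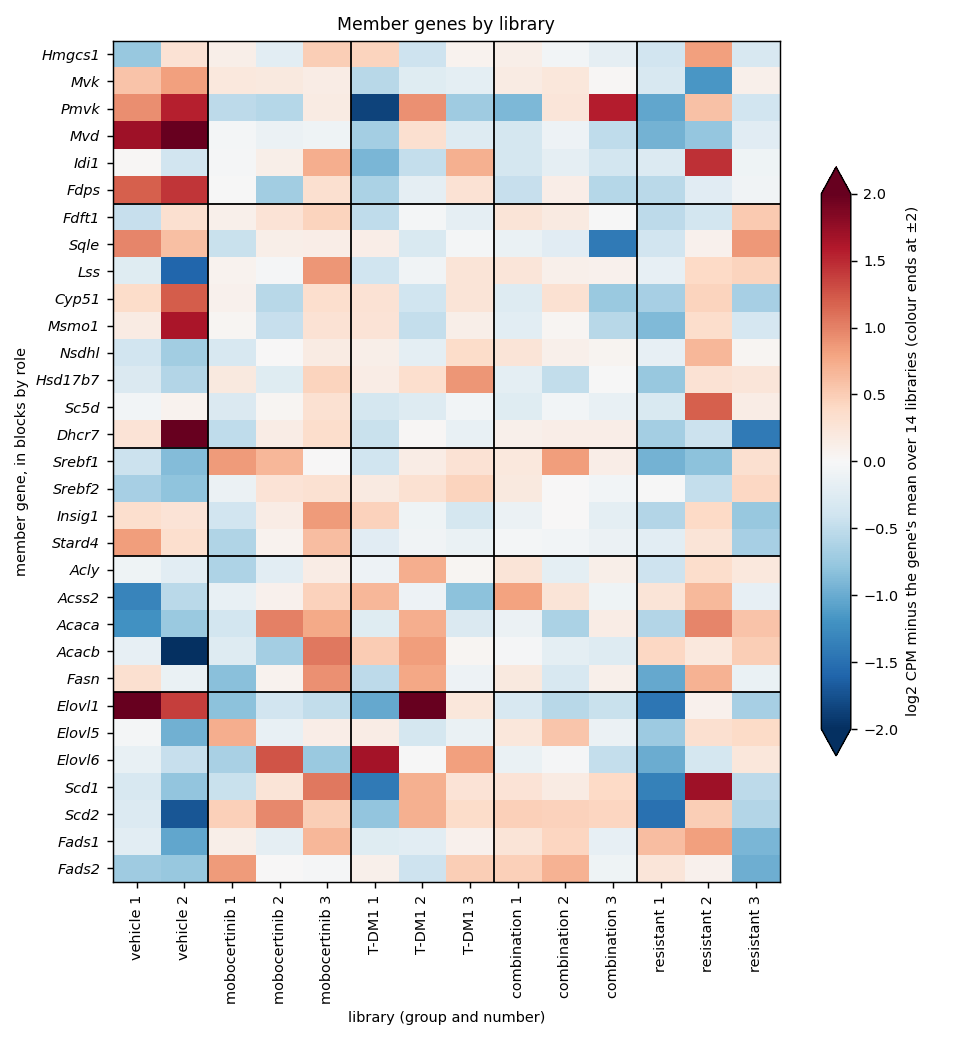
Log2 CPM of the 31 genes (rows, in blocks by role) in each of the 14 libraries (columns, in blocks by group), minus the gene's mean over the libraries. Mvd and Fdps are high in both vehicle libraries, while Scd1 and Fasn vary within groups, with Scd1 highest in resistant 2 and lowest in T-DM1 1.

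Against vehicle, the mevalonate and late sterol genes Mvd, Fdps and Dhcr7 fell in all 4 groups and Srebf2 rose in the counts as deposited, while most of the 31 genes did not pass the test. On the TPM scale, where the median of all genes lay 1.11 to 1.27 above vehicle in log2(TPM + 1), no fall of a gene among the 31 was called, Fdps had 0.02 to 0.26, Dhcr7 had 0.15 to 0.49 outside resistant nodules (-0.29 there), and Mvd stayed negative. On that scale 19, 20, 19 and 20 of the 31 genes were called higher in mobocertinib, T-DM1, the combination and resistant nodules, against 55.0%, 57.5%, 56.9% and 59.7% of 15774 genes. With a pseudocount of 0.1 they were 19, 18, 19 and 18, against 36.8%, 38.4%, 37.8% and 40.4% of 25290 genes, a set that holds more genes of low level. Mobocertinib had 4 of 31 higher and 4 lower (edgeR's quasi-likelihood test, Benjamini-Hochberg adjusted p under 0.05), where 16.8% of all genes tested were called higher and 16.1% lower. T-DM1 had 1 higher and 4 lower, with 16.7% and 14.9% over all genes. The combination had 3 higher and 6 lower, with 17.6% and 17.4% over all genes. Resistant nodules had 3 higher and 6 lower, with 22.0% and 19.0% over all genes. These counts are near or under the shares over all genes, so they are no result about the list. Lack of overlap with the 2 vehicle libraries was common as well. Of the 31 genes, 10, 8, 10 and 6 lay wholly above vehicle in the same order, and 7, 9, 11 and 7 wholly below. Over all genes 31.1%, 32.2%, 33.3% and 28.8% lay above and 28.3%, 26%, 29.9% and 25.6% below. The median log2 fold change of the 31 genes was 0.31, 0.22, 0.11 and 0.27 in the same order, and that of all genes 0.09, 0.18, 0.08 and 0.18. The difference between both medians depended on single libraries. It ran from 0.02 to 0.34, -0.09 to 0.16 and -0.18 to 0.09 in the first 3 comparisons, each lowest without vehicle 1, and from -0.21 (without resistant 2) to 0.32 (without resistant 1) in resistant nodules. Of the 31 single calls, 5 were kept whichever library was left out, namely Mvd in all 4 comparisons and Fdps in resistant nodules.

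Markers of other cells moved between vehicle and the other groups as well. The summed level of 6 endothelial markers was 170 and 202 CPM in vehicle and 459 to 1010 CPM in the other 12 libraries, with 5 of the 6 called higher in every comparison. That of 6 proliferation markers was 112 and 117 CPM in vehicle, 9.02 to 27.8 CPM in mobocertinib, 79.0 to 137 CPM in T-DM1, 22.8 to 36.8 CPM in the combination and 16.8 to 55.3 CPM in resistant nodules, with 5, 0, 4 and 4 of the 6 called lower. That of 5 fibroblast markers was 274 and 277 CPM in vehicle and 340 to 3500 CPM elsewhere, with 3 of the 5 called higher in resistant nodules and 0 in the others. No marker of these 3 lists was at 0 in any library. Of 4 club cell markers, 1 was called higher and 0 lower in every comparison. Cyp2f2, of that list, measured 227.6 and 212.5 CPM in vehicle and 1336 to 11870 CPM in the other 12 libraries. The other club cell markers overlapped vehicle. Over all genes 16.7% to 22.0% were called higher and 14.9% to 19.0% lower. The part of these marker lists in the results against vehicle was not tested.

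The mevalonate steps build the 5-carbon units of sterols. Mvd, the decarboxylase that makes isopentenyl diphosphate, measured 66.3 and 86.5 CPM in vehicle. It measured 20.0, 18.9 and 19.3 CPM in mobocertinib, 12.8, 25.5 and 17.2 CPM in T-DM1, 16.2, 19.2 and 14.4 CPM in the combination, and 10.7 to 17.6 CPM in resistant nodules. Every library of the 4 groups lay below both vehicle libraries, where 25.6% to 29.9% of all genes did in a given comparison. The log2 fold changes were -1.98 ± 0.298 (SE, adjusted p = 0.000627), -2.04 ± 0.299 (0.000521), -2.20 ± 0.299 (0.000301) and -2.51 ± 0.302 (9.32e-05) in that order. With length and GC offsets they ran from -1.83 to -2.04, with adjusted p of 0.00067 to 0.00207. In log2(TPM + 1) they were -0.24, -0.35, -0.38 and -0.63, none called by limma. Mvd lies on mm10 at chr8:122433601-122443422 (- strand).

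Fdps, which joins those units into farnesyl diphosphate, measured 20.9 and 24.7 CPM in vehicle and 5.68 to 11.4 CPM in the other 12 libraries, with no overlap. It fell by 1.39 to 1.58 on the log2 scale (adjusted p 0.00509 to 0.0134). With offsets the changes were -1.75 to -1.94. In the annotation, 26.7% of its exon bases are shared with Gm43738 on the same strand, so its counts are uncertain. Without vehicle 2 the adjusted p was 0.104 in mobocertinib, 0.0949 in T-DM1 and 0.0617 in the combination, without mobocertinib 2 it was 0.0585, and without T-DM1 1 it was 0.0534.

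Mvk, the kinase that phosphorylates mevalonate, measured 27.4 and 32.8 CPM in vehicle, 20.5 to 21.4 CPM in mobocertinib, 12.6 to 16.1 CPM in T-DM1, 18.9 to 21.6 CPM in the combination and 8.30 to 19.8 CPM in resistant nodules. No treated library reached the vehicle range. Mvk fell in T-DM1 (-1.02 ± 0.298, adjusted p = 0.0208) and in resistant nodules (-1.07 ± 0.298, adjusted p = 0.0124), and its values were -0.52 (0.198) in mobocertinib and -0.56 (0.16) in the combination. Without vehicle 2 the adjusted p was 0.19 in T-DM1 and 0.138 in resistant nodules, and without T-DM1 1 it was 0.0951 in T-DM1. With offsets the changes were -1.21 (0.00472) and -1.01 (0.00899). Hmgcs1, which acts just before the rate-limiting reductase, had log2 fold changes of 0.11 to 0.31, none past the test. Idi1, the isomerase of the 5-carbon units, had -0.14 to 0.76. Pmvk, the next kinase after Mvk, spanned 22.9 CPM (T-DM1 1) to 246 CPM (combination 3), and its log2 fold changes of -1.55 to -0.63 did not pass.

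**Figure D2:**
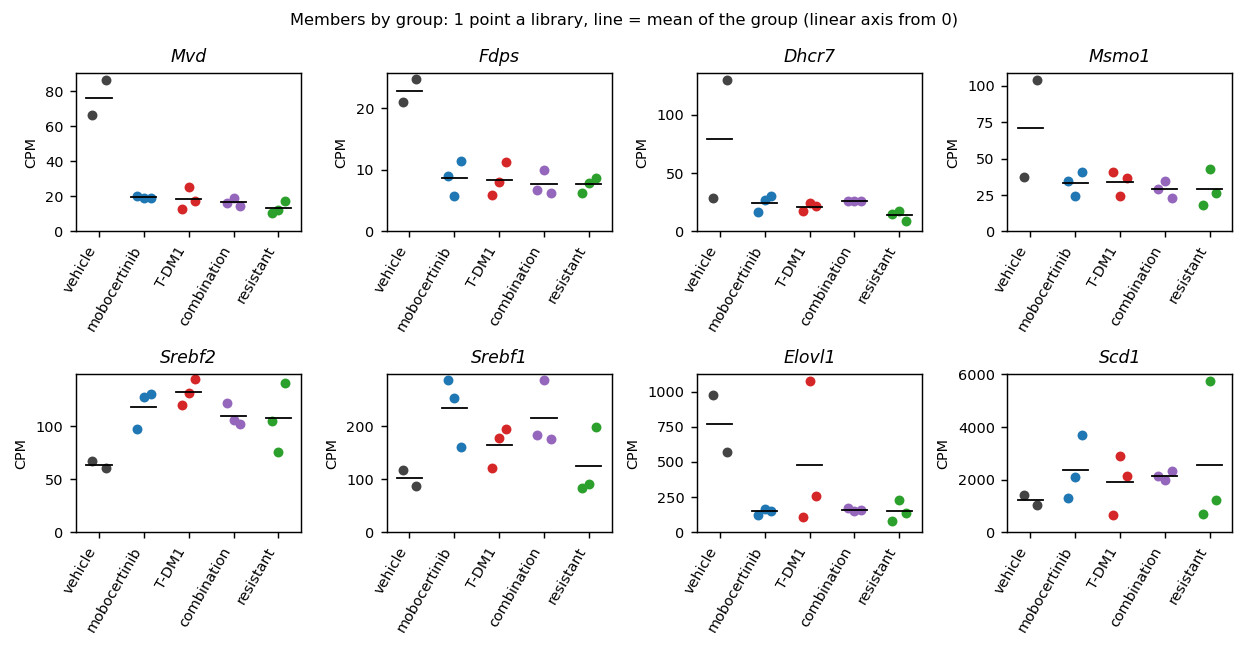
CPM of 8 genes in each library, by group, with the mean of the group as a line; each axis is linear and starts at 0. Mvd and Fdps of vehicle lie above all other libraries, whereas for Dhcr7 and Msmo1 the vehicle mean rests on 1 high library.

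From squalene onward, Dhcr7, the last reductase before cholesterol, measured 28.8 and 130 CPM in vehicle. It measured 16.8, 26.6 and 30.5 CPM in mobocertinib, 17.6, 24.2 and 21.6 CPM in T-DM1, 25.7, 26.3 and 26.2 CPM in the combination, and 14.9, 17.8 and 9.01 CPM in resistant nodules. Mobocertinib 3 overlapped the lower vehicle library. The log2 fold changes were -1.68 (adjusted p = 0.017), -1.90 (0.00994), -1.60 (0.02) and -2.51 (0.00151), and with offsets -1.98 to -2.82 (0.0024 to 0.0163). Without vehicle 2 they were -0.11 (0.861), -0.33 (0.558), -0.01 (0.987) and -0.95 (0.0779). The calls therefore needed that library, and leaving out mobocertinib 1 or any combination library also ended the call there (adjusted p 0.0506 to 0.0584).

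Msmo1, the C4-methyl sterol oxidase, measured 37.7 and 104 CPM in vehicle, 22.9 to 34.6 CPM in the combination and 18.2 to 42.7 CPM in resistant nodules. It fell in these 2 groups (-1.30, adjusted p = 0.0336, and -1.28, adjusted p = 0.0307), and had -1.10 (0.0671) in mobocertinib and -1.07 (0.0732) in T-DM1. Without vehicle 2 the values were -0.25 (0.701) in the combination and -0.29 (0.653) in resistant nodules. Calls were also lost without combination 1 (0.0823), combination 3 (0.11), resistant 1 (0.101) or resistant 3 (0.0683). With offsets the values were -1.47 (0.0333) and -1.62 (0.018).

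Sqle, the epoxidase that commits squalene to sterols, measured 46.9 and 36.5 CPM in vehicle and 21.9, 20.5 and 8.99 CPM in the combination, where it fell (-1.28 ± 0.399, adjusted p = 0.0252, and -2.07, adjusted p = 0.00464, with offsets). Its call ended without vehicle 1 (0.12), vehicle 2 (0.0784) or combination 3 (0.0852). The other groups had -0.84 (0.122), -0.86 (0.115) and -0.52 (0.314), and resistant 3, at 43.6 CPM, lay within the vehicle range. Lss, the cyclase that makes lanosterol, measured 15.8 and 6.24 CPM in vehicle and 19.7, 18.4 and 34.4 CPM in mobocertinib. It rose there (1.13 ± 0.404, adjusted p = 0.0477), and the call ended without vehicle 2 (0.238), mobocertinib 1 (0.0533) or mobocertinib 3 (0.132). With offsets the Lss value was -0.03 (0.96).

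Cyp51, the lanosterol demethylase, had log2 fold changes of -1.05 to -0.77 (adjusted p 0.065 to 0.18), and Nsdhl, a sterol dehydrogenase, 0.50 to 0.75 (0.0669 to 0.228). Hsd17b7, Sc5d and Fdft1, which act before and after them, had log2 fold changes of -0.22 to 0.92, none past the test. Of Fdft1, 18.3% of exon bases are shared with Ctsb on the other strand.

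Among the regulators, Srebf2, which encodes SREBP2, measured 67.0 and 60.4 CPM in vehicle. It measured 97.6, 128 and 130 CPM in mobocertinib, 120, 131 and 145 CPM in T-DM1, 121, 106 and 102 CPM in the combination, and 105, 76.0 and 141 CPM in resistant nodules. All 12 lay above both vehicle libraries, where 28.8% to 33.3% of all genes did in a given comparison. It rose by 0.90 ± 0.259 (adjusted p = 0.0193), 1.05 ± 0.261 (0.00972), 0.79 ± 0.258 (0.0317) and 0.75 ± 0.258 (0.0336). With length and GC offsets the same changes were -0.05, 0.07, -0.18 and -0.21, none called (0.411 to 0.864), so no call held and the direction turned in 3 of the 4. Without vehicle 2 the adjusted p was 0.0642 to 0.125 in the 4 comparisons. The combination also lost the call without vehicle 1 (0.0673), combination 1 (0.0918) or combination 2 (0.0578), and resistant nodules lost it without vehicle 1 (0.0683) or resistant 3 (0.101).

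Srebf1, which encodes SREBP1, measured 118 and 87.4 CPM in vehicle and 288, 254 and 160 CPM in mobocertinib, where it rose (1.19 ± 0.419, adjusted p = 0.0453). Resistant nodules, at 82.8, 90.5 and 199 CPM, overlapped vehicle (0.27, adjusted p = 0.611). With offsets the mobocertinib value was 0.45 (0.422), and the call also ended without vehicle 1 (0.0725), vehicle 2 (0.192), mobocertinib 1 (0.114) or mobocertinib 2 (0.0786). Insig1, the sterol-regulated anchor of SCAP and itself an SREBP target, had -0.52 to -0.01, and Stard4, a cytosolic sterol carrier, had -0.76 to -0.50, none past the test.

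Of the fatty acid synthesis genes, Acss2, which makes acetyl-CoA from acetate, measured 9.48 and 16.3 CPM in vehicle. It measured 41.7, 28.4 and 22.3 CPM in the combination and 28.6, 37.2 and 21.3 CPM in resistant nodules, all above vehicle. It rose in both (1.25, adjusted p = 0.0432, and 1.17, adjusted p = 0.0497). Without vehicle 1 these were 0.94 (0.206) and 0.86 (0.23), and the adjusted p was 0.142 without combination 1, 0.0674 without combination 2, 0.0674 without resistant 1 and 0.122 without resistant 2. Acaca, the acetyl-CoA carboxylase of the cytosol, measured 14.5 and 20.2 CPM in vehicle, 26.3, 67.6 and 57.0 CPM in mobocertinib and 22.5 to 66.4 CPM in resistant nodules. It rose in both (1.54, adjusted p = 0.0362, and 1.42, adjusted p = 0.0414). With offsets the Acaca values were -0.05 and -0.50 and the Acss2 values 0.68 and 0.45, none called. Leaving out either vehicle library ended both Acaca calls (0.079 to 0.17), as did mobocertinib 2 (0.0806), mobocertinib 3 (0.0689), resistant 2 (0.121) and resistant 3 (0.0705).

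Fasn, fatty acid synthase, had log2 fold changes of -0.10 to 0.11, and its libraries ran from 165 CPM (resistant 1) to 629 CPM (mobocertinib 3) around 417 and 305 CPM in vehicle. Acly, which makes cytosolic acetyl-CoA from citrate, had -0.05 to 0.42. Acacb, the carboxylase of the mitochondrial surface, had 0.65 to 1.30 (adjusted p 0.0965 to 0.38).

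In elongation and desaturation, Elovl1, the elongase of very long saturated chains, measured 973 and 571 CPM in vehicle and 124, 168 and 154 CPM in mobocertinib. It measured 107, 1074 and 256 CPM in T-DM1, 175, 148 and 161 CPM in the combination, and 80.4, 231 and 138 CPM in resistant nodules. T-DM1 2 stood alone among the treated libraries, above both vehicle libraries. Elovl1 fell in mobocertinib (-2.37 ± 0.699, adjusted p = 0.0208), the combination (-2.26 ± 0.697, adjusted p = 0.0243) and resistant nodules (-2.36 ± 0.698, adjusted p = 0.017), and its value in T-DM1 was -0.69 (0.463). The call ended without vehicle 1 in all 3 (0.0923 to 0.12), in mobocertinib without any 1 of its libraries (0.05 to 0.0613), in the combination without vehicle 2 or any 1 of its own (0.0539 to 0.0681), and in resistant nodules without resistant 1 (0.0567). With offsets the changes were -2.18 (0.0411) in mobocertinib and -1.93 (0.0535) in resistant nodules, and the combination had an adjusted p of 0.0544.

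Fads2, the Δ6 desaturase of polyunsaturated acids, measured 31.6 and 30.8 CPM in vehicle and 72.5, 84.3 and 48.9 CPM in the combination, where it rose (1.13 ± 0.412, adjusted p = 0.0478). That call ended without either vehicle library (0.122 and 0.141), combination 1 (0.103) or combination 2 (0.126), and with offsets the value was 0.74 (0.218). Scd2 had 0.51 to 1.48 (adjusted p 0.0683 to 0.485) and Scd1 0.64 to 1.07 (0.297 to 0.552). Fads1, the Δ5 desaturase, had 0.44 to 0.91, Elovl5 0.33 to 0.71, and Elovl6, which lengthens palmitate, 0.00 to 1.27, none past the test.

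**Figure D3:**
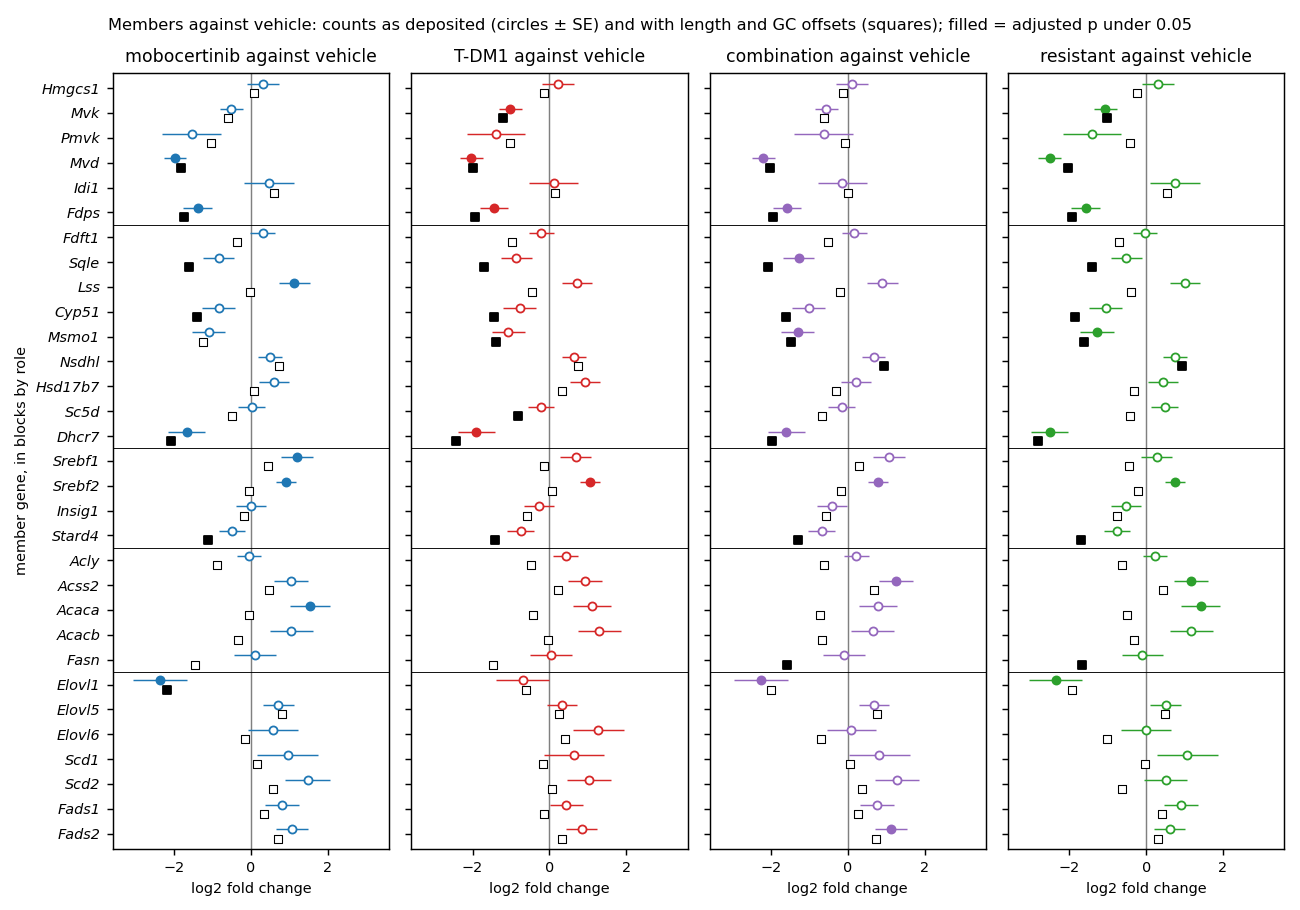
Log2 fold changes of the 31 genes against vehicle in 4 panels, from the counts as deposited (circles, with SE) and with length and GC offsets (squares); filled symbols have an adjusted p under 0.05. Mvd, Fdps and Dhcr7 are filled on the lower side in both fits in every panel, while the genes called higher from the counts as deposited have open squares.

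With length and GC offsets, fitted over 17565 genes, the calls moved to the lower side. Mobocertinib then had 0 of 31 genes higher and 7 lower, against 8.23% and 16.5% of all genes. T-DM1 had 0 higher and 9 lower, against 6.96% and 18.2%. The combination had 1 higher and 8 lower, against 8.73% and 17.1%. Resistant nodules had 1 higher and 9 lower, against 11.0% and 20.7%. Sqle (-1.40 to -2.07), Cyp51 (-1.41 to -1.86) and Stard4 (-1.13 to -1.71) were then lower in all 4 comparisons beside Mvd, Fdps and Dhcr7. Msmo1 was lower in 3, with -1.25 (0.0604) in mobocertinib, and Mvk in T-DM1 and resistant nodules. Fasn was lower in the combination (-1.59, adjusted p = 0.0457) and in resistant nodules (-1.66, adjusted p = 0.0337), Sc5d in T-DM1 (-0.81, adjusted p = 0.0476) and Elovl1 in mobocertinib. The 1 gene higher was Nsdhl in both cases (0.94 and 0.93). The median over the 31 genes was -0.19, -0.45, -0.56 and -0.50, and over all genes -0.16, -0.21, -0.17 and -0.15. The direction of these added falls depended on the scale. Fasn measured 63.0 and 23.9 TPM in vehicle, 107 to 179 TPM in the combination and 77.5 to 222 TPM in resistant nodules. Cyp51 measured 4.45 and 5.32 TPM in vehicle and 5.93 to 13.2 TPM elsewhere. In TPM, Sqle and Stard4 of vehicle overlapped the other libraries.

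Among the treated groups, the comparisons ask how the combination differs from each drug alone, how resistant nodules differ from mobocertinib, and how the 2 drugs differ. None of the 31 genes was called by edgeR in any of the 4, nor by DESeq2 or any other alternative fit. Over all genes, 0% were called for the combination against mobocertinib, 0% against T-DM1, 0.00558% for resistant against mobocertinib and 0.0279% for T-DM1 against mobocertinib. At an unadjusted p under 0.05 there were 0, 1, 1 and 1 of the 31 genes, against 1.46%, 5.10%, 7.77% and 9.56% of all genes. Srebf1 averaged 124 ± 64.8 CPM (SD, n = 3) in resistant nodules and 234 ± 66.0 CPM (SD, n = 3) in mobocertinib (log2 fold change -0.92 ± 0.363, unadjusted p = 0.0259, adjusted p = 0.622 by edgeR), and 1 resistant library, at 199 CPM, lay within the mobocertinib range. Elovl1 had 1.69 ± 0.642 in T-DM1 against mobocertinib (unadjusted p = 0.0211, adjusted p = 0.404 by edgeR) and -1.57 ± 0.64 in the combination against T-DM1 (unadjusted p = 0.0291, adjusted p = 0.94), both through T-DM1 2. Next in resistant against mobocertinib were Mvk (-0.56), Mvd (-0.53) and Scd2 (-0.97), with adjusted p of 0.622 to 0.624. The median over the 31 genes was -0.18, -0.11, -0.16 and -0.12, and over all genes -0.01, -0.04, 0.07 and 0.01. These medians depended on single libraries too. Without mobocertinib 3 they were -0.01 for the combination, 0.01 for resistant nodules and 0.09 for T-DM1 against mobocertinib. Resistant against mobocertinib had -0.45 without resistant 2 and 0.03 without resistant 1, and the combination against T-DM1 had 0.09 without T-DM1 2 and 0.08 without T-DM1 3.

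Within groups, Scd1, Fasn and Elovl1 differed between libraries together with the markers of alveolar type 2 cells. The summed level of 10 such markers, among them Sftpc, Lamp3 and Abca3, was 143000 and 212000 CPM in vehicle. It was 10100 (T-DM1 1) to 80400 CPM (T-DM1 2) in the other 12 libraries. Sftpc alone, with a transcript of 792 bases, gave 116700 and 185900 CPM of the vehicle sums. All 10 markers were tested, and 1, 1, 2 and 1 were called lower than vehicle in mobocertinib, T-DM1, the combination and resistant nodules. Over all genes 14.9% to 19.0% were called lower. Scd1 measured 666 CPM in T-DM1 1 and 2905 CPM in T-DM1 2, 698 CPM in resistant 1 and 5751 CPM in resistant 2, and 1304 CPM in mobocertinib 1 and 3679 CPM in mobocertinib 3. In each of these pairs the library with more Scd1 also had the higher marker score (-1.29 and 1.32 in T-DM1, -1.42 and 1.33 in resistant nodules), the mean of centred log2 CPM. The vehicle libraries had scores of 1.55 and 1.20 with Scd1 at 1412 and 1024 CPM.

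A fit of each gene on this score over the 12 treated libraries, with a mean for each group, was added after these values were seen. It called 3 of 31 genes higher with the score and 0 lower, where 1.20% of 16875 genes were higher and 0.551% lower. The slopes, in log2 units per unit of score, were 0.92 ± 0.137 (SE, adjusted p = 0.0103, edgeR) for Scd1, 0.60 ± 0.102 (adjusted p = 0.0162) for Fasn and 0.76 ± 0.153 (adjusted p = 0.0345) for Elovl1. Acaca (0.48) and Scd2 (0.50) had an adjusted p of 0.0738. Among sterol genes, Mvd had 0.11 ± 0.115 (0.675), Sqle -0.06 ± 0.164 (0.895) and Pmvk 0.73 ± 0.2 (0.109). The median slope was 0.12 over the 31 genes and -0.02 over all genes.

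The calls of these slopes rest on few libraries. Without both resistant 2 and T-DM1 2, the farthest from the median score, 0 genes were called and the slopes were 1.07 (adjusted p = 0.439) for Scd1, 0.96 (0.385) for Fasn and 0.55 (0.651) for Elovl1, so the slopes of Scd1 and Fasn were no lower than over all 12. Without resistant 2 alone the values were 0.78 (0.108) for Scd1 and 0.68 (0.0635) for Fasn, and without T-DM1 2 they were 0.67 (0.0678) for Fasn and 0.48 (0.113) for Elovl1. Elovl1 lost its call in 8 of the 12 fits that leave out 1 library, which beside T-DM1 2 were those without mobocertinib 2, T-DM1 1, T-DM1 3, any combination library or resistant 1 (0.0558 to 0.108). Without resistant 3, 5 genes were called. The alveolar macrophage markers also stood high in the same libraries, with a summed 2930 CPM in T-DM1 2, 2160 CPM in resistant 2 and 3830 CPM in mobocertinib 3, against 495 to 1860 CPM in the other 9. Their part in the result was not tested, and in bulk tissue fewer cells of a type cannot be told apart from less RNA per cell.

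**Figure D4:**
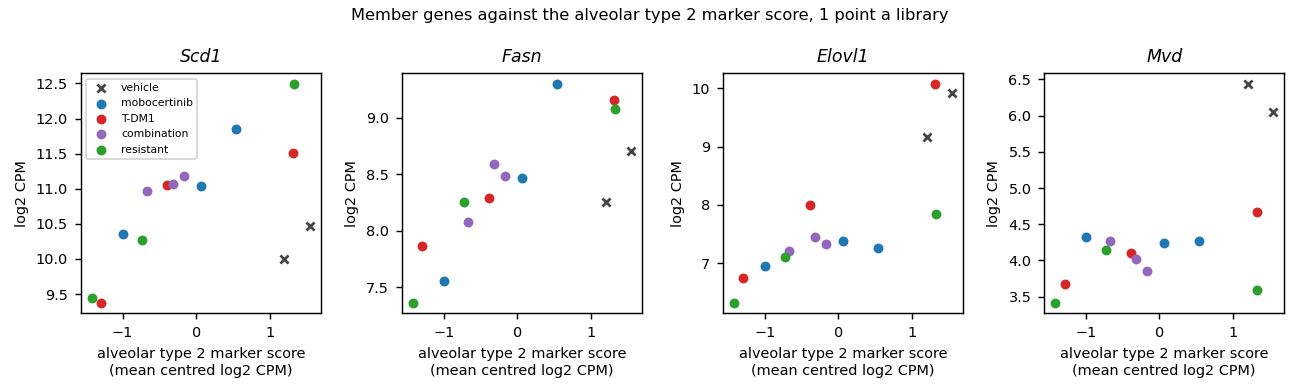
Log2 CPM of Scd1, Fasn, Elovl1 and Mvd (y axis) against the alveolar type 2 marker score (x axis), 1 point a library, with vehicle as crosses. Among the treated libraries, Scd1 and Fasn are low where the score is low. The vehicle libraries have high scores with Scd1 at 1412 and 1024 CPM. Elovl1 is high in T-DM1 2 and vehicle, and Mvd separates vehicle from the other libraries.

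One library stood apart in adipocyte markers. The summed level of 10 adipocyte markers was 477 CPM in T-DM1 1 and 25.0 to 82.1 CPM in the other 13 libraries, and 6 of the 10 passed the filter. In those 13 libraries most of the sum was Lipe alone, at 21.8 CPM in vehicle 1 and 76.3 CPM in resistant 1, the lowest and highest sums. Adipoq, the adipocyte hormone adiponectin, had 629 counts in T-DM1 1 and 0 to 8 elsewhere, with 0 in 9 libraries. Elovl6 was highest there, at 16.7 CPM, with 5.29 and 9.39 CPM in the other T-DM1 libraries and 4.80 and 3.86 CPM in vehicle. The next highest library for Elovl6 was mobocertinib 2, at 12.7 CPM, where the adipocyte markers summed to 35.6 CPM, of which Lipe gave 34.7 CPM. Scd1 and Pmvk were at their lowest in T-DM1 1. Without T-DM1 1 the comparison of T-DM1 with vehicle called 3 genes in place of 5. The part of those cells in these values was not tested.

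Genes around the pathway were taken from lists of its companions. Of 6 genes of the LXR pathway, in which oxysterol-sensing receptors switch on cholesterol export, 2 rose and 1 fell in mobocertinib, T-DM1 and the combination, and 2 rose and 2 fell in resistant nodules, where 16.7% to 22.0% of all genes rose and 14.9% to 19.0% fell over the 4 comparisons. Abca1, the cholesterol exporter, measured 9.24 and 6.46 CPM in vehicle. It measured 175, 129 and 208 CPM in mobocertinib, 95.1, 60.3 and 98.6 CPM in T-DM1, 179, 190 and 214 CPM in the combination, and 95.2, 88.6 and 110 CPM in resistant nodules. The lowest treated library was over the highest vehicle library in each group, and the fold changes were 21.7 (adjusted p = 7.06e-05), 10.8 (0.000214), 24.7 (4.84e-05) and 12.4 (5.91e-05). With offsets the log2 fold changes were 3.05, 1.95, 3.26 and 1.83, in place of 4.44, 3.43, 4.62 and 3.63, all called. The endothelial markers were higher in the same libraries, and their part in the rises of Abca1, Mylip and Gpam was not tested. Abcg1, of the same list, was called lower in resistant nodules only. It measured 114 and 138 CPM in vehicle and 55.0, 72.1 and 46.2 CPM in resistant nodules. Mobocertinib had 142 to 183 CPM, T-DM1 51.1 to 138 CPM and the combination 111 to 148 CPM. In TPM the direction turned, with 13.7 and 11.0 in vehicle and 15.9 to 23.3 in resistant nodules.

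Mylip, a ubiquitin ligase that lowers lipoprotein uptake, measured 9.48 and 5.50 CPM in vehicle and 38.4 to 122 CPM in the other libraries. It rose 6.27- to 12.5-fold (adjusted p 8.83e-05 to 0.000353), and with offsets by 3.34, 2.20, 3.28 and 2.71 on the log2 scale, all called. Nr1h3, which encodes LXRα, fell to 24.2, 27.6, 20.0 and 20.1 CPM on average from 82.3 CPM (log2 fold changes -1.76, -1.58, -2.04 and -2.03, adjusted p 0.00171 to 0.01), and had -1.60 to -1.91 with offsets (0.00395 to 0.00888). Alveolar macrophages also express Nr1h3, and their 10 markers summed to 10300 and 10200 CPM in vehicle and 495 to 3830 CPM elsewhere. Chil3 alone gave 8669 and 7391 CPM of the vehicle sums. Of the 10 markers, 4, 6, 6 and 5 were called lower and 0 higher in the 4 comparisons. Over all genes 14.9% to 19.0% were called lower. The part of those cells in the fall of Nr1h3 was not tested. Without vehicle 2 the adjusted p of Nr1h3 was 0.083 in mobocertinib and 0.135 in T-DM1.

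**Figure D5:**
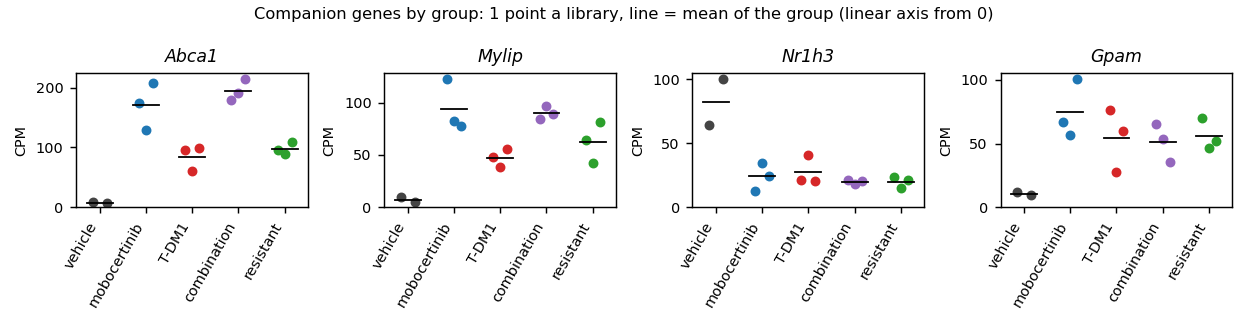
CPM of Abca1, Mylip, Nr1h3 and Gpam in each library, by group, with the mean of the group as a line; each axis is linear and starts at 0. Abca1, Mylip and Gpam of both vehicle libraries lie below all others, and Nr1h3 of vehicle lies above them.

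Of 4 genes that process SREBPs, 2 rose in every comparison, where 16.7% to 22.0% of all genes did, and neither Scap nor the 2 protease genes were called with offsets. Mbtps1, the first of the 2 proteases, averaged 69.1 CPM in vehicle and 160, 131, 159 and 158 CPM in the other groups (adjusted p 0.00177 to 0.0103), and Scap averaged 39.6 CPM in vehicle and rose to 97.8, 76.1 and 95.4 CPM in mobocertinib, T-DM1 and the combination. With offsets no Mbtps1 value was called (-0.05 to -0.40), and the Scap values were 0.54, 0.13 and 0.47, none called. In resistant nodules the second gene was Mbtps2, the other protease (1.12, adjusted p = 0.0394). Its offset value was 0.41 (0.268), and it had no call without vehicle 2 (0.172) or resistant 2 (0.132). In the annotation, 28.4% of Mbtps2 exon bases are shared with Yy2 on the same strand, so its counts are uncertain. Scap had 0.72 (0.0747) in resistant nodules. Scap in T-DM1 also lost its call without vehicle 1 (0.116), vehicle 2 (0.0983), T-DM1 1 (0.0667) or T-DM1 3 (0.11). Of 5 other sterol genes 0 rose and 2 fell in each comparison, where 14.9% to 19.0% of all genes fell. These were Tm7sf2, the C14 sterol reductase (25.8 CPM in vehicle and 6.53, 8.94, 5.47 and 4.32 CPM elsewhere, adjusted p 0.000394 to 0.0114, and -1.99 to -2.91 on the log2 scale with offsets, all called), and Ebp, a sterol isomerase (131 CPM in vehicle and 63.8, 57.1, 73.5 and 59.6 CPM elsewhere, 0.0101 to 0.0481). Without vehicle 2 Ebp had log2 fold changes of -0.32 to -0.70, none called, and with offsets only T-DM1 kept the call (-1.17, adjusted p = 0.021). It lost the call too without mobocertinib 3 (0.0945) or any combination library (0.0756 to 0.163). Tm7sf2 lost its call in T-DM1 without vehicle 1 (0.151) or T-DM1 1 (0.0518). Of Tm7sf2, 12.1% of exon bases are shared with Vps51 on the same strand.

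Of 6 glycerolipid genes, Gpam, the first acyltransferase of triglyceride synthesis and a known SREBP1 target, rose 7.01-, 5.11-, 4.83- and 5.27-fold (adjusted p 0.000858 to 0.00211), with an offset value of 1.04 (0.0507) in resistant nodules. Agpat2, the next acyltransferase, fell from 169 CPM to 63.5, 65.8, 62.6 and 41.1 CPM (adjusted p 0.000116 to 0.00209), with -1.03 to -1.36 on the log2 scale with offsets, all called. In log2(TPM + 1), Ebp was higher than in vehicle in all 4 comparisons (0.19 to 0.69), Agpat2 in all but resistant nodules (0.18 to 0.23), and Tm7sf2 (0.09) and Nr1h3 (0.13) in T-DM1. The list had 2, 2, 1 and 2 genes higher and 1, 1, 1 and 3 lower, where 16.7% to 22.0% of all genes rose and 14.9% to 19.0% fell. Of 8 other lipogenic genes, 7 were tested and 0 were called in any comparison by edgeR, with 0 at an unadjusted p under 0.05, where 44.4%, 44.0%, 45.3% and 50.6% of all genes were. Of 9 fatty acid oxidation genes 3 or 4 rose and 0 fell in each comparison, against the same shares of all genes. Cpt1a, which admits fatty acids to mitochondria, rose 2.64-, 3.12-, 3.17- and 3.88-fold (adjusted p 0.000784 to 0.00691), with 0.0589 for mobocertinib without vehicle 2 and 0.0965 for it with offsets. Ppara, a receptor that switches on oxidation genes, had 0 counts in both vehicle libraries and averaged 1.52, 2.62, 1.70 and 1.74 CPM elsewhere, at least 15.3-, 26.3-, 17.1- and 17.5-fold higher against a floor of 3 counts over the group, a bound that covers counting error only, and it was called higher with offsets as well (0.00132 to 0.00263). Hadha, a subunit of the mitochondrial trifunctional protein, rose by 0.64 to 0.77 (adjusted p 0.0176 to 0.0471), with offset values of -0.10 to -0.03. Its calls ended without vehicle 1 in all 4 comparisons (0.0864 to 0.166), in mobocertinib also without vehicle 2 or any 1 of its libraries (0.0601 to 0.0778), and elsewhere without T-DM1 2 (0.0714), combination 1 (0.107) or combination 3 (0.0552).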

How the data were processed

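RNA of 14 libraries was analysed from 2 tables. The authors deposited whole-number counts per gene symbol and, in a second table, TPM values scaled to transcript length and library size. STAR, RSEM and mm10 were used, per the submitters' processing notes. The sources used here do not say which step each did, at which version, or with which annotation and strand rule. Groups come from the labels' treatment entries, and library numbers only name a library. Libraries of a group differed by more than sampling noise (87.9 to 504 chi-square units for each degree of freedom). Each was counted as 1 replicate, although such a difference does not show that they came from separate mice.

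The test was edgeR's (version 4.0.16, R 4.3.3) robust quasi-likelihood F-test on TMM-scaled libraries after filterByExpr, in 1 fit over all 14 libraries and 17933 genes with 9 residual degrees of freedom. Adjustment (Benjamini-Hochberg) was over all genes tested, and genes under 0.05 were called. The SE is the log2 fold change divided by the square root of F. The fit on the marker score used 12 libraries, 16875 genes and 7 residual degrees of freedom. Procedures were tested on simulated data. Positions and gene overlaps come from GENCODE M21 on mm10, and promoter windows from RefSeq.

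The genes and lists were chosen by name, with earlier results of these data known. All 31 genes are described. Called genes are named in each comparison, and for companion lists up to 3 called genes, with Abcg1 added. Alternatives were RLE and upper-quartile factors, no filter beyond 1 count, DESeq2 1.42.0, only the 2 groups compared, limma-trend (limma 3.58.1) on log2(TPM + 1) for genes with a TPM of at least 1 in 2 libraries and on log2(TPM + 0.1), length and GC offsets, leaving out each library, and 1 base difference in the sterol element. Marker lists whose sums are not given elsewhere summed, over the 14 libraries, to 4890 to 30000 CPM (club cell) and 1480 to 5570 CPM (epithelial).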

Additional observations from a re-analysis of the deposited data

How the results depend on the processing

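No paired analysis was possible because the library numbers follow accession order and pair nothing. Against vehicle, 8, 5, 9 and 9 of the 31 genes were called in mobocertinib, T-DM1, the combination and resistant nodules. Leaving out 1 library gave 2 to 8, 1 to 8, 2 to 7 and 4 to 10, with the lowest counts without vehicle 2. The 4 comparisons among treated groups called 0 of the 31 genes under every alternative. Length and GC offsets called 9 in T-DM1, and the 2-group fit 4 in resistant nodules. RLE factors kept 29 of the 31 single calls, upper-quartile factors and no filter 23 each, DESeq2 31, the 2-group fits 21, the offsets 18 and each TPM fit 11.

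The TPM fits called 19, 20, 19 and 20 genes with a pseudocount of 1 and 19, 18, 19 and 18 with 0.1, all higher, where the median of all genes moved to 1.11, 1.17, 1.18 and 1.27 and to 0.92, 0.98, 0.92 and 1.02. Over all genes, 92.0% to 94.7% of their calls were higher, against 50.4% to 53.7% for the counts as deposited and 27.6% to 34.8% with the offsets. The members' medians minus those of all genes were 0.39, 0.18, 0.12 and 0.08 with 1 and 0.79, 0.96, 0.82 and 0.60 with 0.1. Values of the opposite sign all came from the TPM fits or the offsets, and the cause was not tested. In the TPM fits (pseudocount 1, then 0.1) the log2 fold changes were, for Fdps, 0.26 and 0.26 in mobocertinib, 0.21 and 0.22 in T-DM1, 0.11 and 0.12 in the combination and 0.02 and 0.02 in resistant nodules. Dhcr7 had 0.29 and 0.32, 0.15 and 0.17, and 0.49 and 0.54 in the first 3. Mvk had 0.34 and 0.37 in T-DM1 and 0.21 and 0.22 in resistant nodules. Sqle had 0.42 and 0.47 in the combination, where Msmo1 had 0.40 and 0.42, with 0.32 and 0.33 in resistant nodules. Ebp had 0.33 and 0.33, 0.19 and 0.20, 0.69 and 0.70, and 0.47 and 0.48 in the 4 comparisons, Agpat2 0.18 and 0.18, 0.22 and 0.22, and 0.23 and 0.24 in the first 3, and in T-DM1 Tm7sf2 had 0.09 and 0.12 and Nr1h3 0.13 and 0.14. With offsets, Lss had -0.03, Srebf2 -0.05 and Acaca -0.05 in mobocertinib, Srebf2 -0.18 in the combination and -0.21 in resistant nodules, and Acaca -0.50 there. Mbtps1 had -0.05, -0.40, -0.07 and -0.31, and Hadha -0.10, -0.08, -0.07 and -0.03.

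The fit on the alveolar type 2 score called 3 genes, 1 to 5 when 1 library was left out, and 0 without the 2 libraries farthest from the median score. The sterol regulatory element matched 1 gene, and 10 with 1 base allowed to differ, since that search is wider by construction. Each library held at least 19.3 M counts, and every comparison with vehicle rests on 2 vehicle libraries.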
